A study of Mus musculus with 80 samples.

Results

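Bins of 2 kb that took a larger share of reads from chromatin with dimethylated lysine 9 of histone H3 (H3K9me2) in long-term 2i (LT2i) than in serum were followed across the genome of mouse ESCs. They were chosen by their measured values: a mean LT2i value of 5 or more and a mean LT2i value at least 1 above the mean serum value, both on the log2 scale, on the 19 autosomes. By this rule 18724 of 995960 autosomal bins were gaining bins, 1.88% of them, out of 1026637 bins in all. As inferred from the deposited values, they are log2 reads per bin with every library scaled to the same size, so a difference of 1 is a 2-fold difference in the share of a library that falls in a bin. The amount of H3K9me2 per cell is not measured on this scale, and a bin can gain in share while the mark as a whole is lost. A mirrored rule, a mean serum value of 5 or more and an LT2i value lower by 1 or more, found 17437 losing bins, which serve for comparison.

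All libraries came from wild-type E14, an ESC line, so every statement is about 1 line. Serum is the conventional medium with serum, and 2i replaces it with inhibitors of the MEK and GSK3 kinases. H3K9me2-bound DNA was sequenced from serum, from 24 h of 2i and from LT2i with 2 libraries each, beside 1 input library (DNA before the antibody step) per condition. RNA was sequenced from 3 samples each in serum and after 6 h, 24 h and 72 h of 2i, and none of the RNA analysed here came from LT2i. The bound libraries held 14396552 to 19279328 reads in bins and replicate pairs correlated at 0.848 to 0.906 across bins. All 10 ESC markers stood at 0 or more (log2) in all 12 RNA libraries, with a summed level of 9.94 to 10.56. That level was 1.48 to 1.84 for 6 primitive endoderm, 0.42 to 2.47 for 5 trophoblast and 2.17 to 3.28 for 6 fibroblast markers. Of the fibroblast markers, 2 stood at 0 or more in all 12 libraries and 4 below 0 in all. No primitive endoderm or trophoblast marker stood at 0 or more in all.

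H3K9me2 is a repressive chromatin mark written mainly by the EHMT1 and EHMT2 enzymes (GLP and G9a). It spreads over broad domains of gene-poor, late replicating DNA and over silent genes, and is low at the promoters of active genes. UHRF1, which brings the maintenance DNA methyltransferase to newly copied DNA, reads H3K9 methylation together with hemimethylated CpG sites, so the mark is tied to how DNA methylation is kept.

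Most gaining bins lie far from genes, but some sit on the start of a gene, where the DNA can be read. The stretches below lie within gaining bins and run up to the base before the annotated start, 5′ to 3′ on the gene's strand, with each CpG in capitals (RefSeq, GRCm38.p6). They were picked after the values were seen: the 4 gaining bins with the largest difference among those holding a promoter with 15 CpG or more, and Neurod1, whose expression fell most among genes with such a promoter in a gaining bin. Gatd3a encodes a mitochondrial protein, Zfp518a a zinc finger protein, Ssbp1 the mitochondrial single-strand DNA-binding protein, Elac2 an RNase that trims tRNA ends, and Neurod1 a transcription factor of neurons and pancreas.
Gatd3a (chr10:78169756-78170000, - strand): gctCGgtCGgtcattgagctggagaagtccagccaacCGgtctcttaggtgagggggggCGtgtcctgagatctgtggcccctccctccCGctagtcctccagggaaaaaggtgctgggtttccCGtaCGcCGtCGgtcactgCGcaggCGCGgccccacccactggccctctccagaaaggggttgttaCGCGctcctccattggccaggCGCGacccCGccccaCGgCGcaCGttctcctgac
Zfp518a (chr19:40894455-40894704, + strand): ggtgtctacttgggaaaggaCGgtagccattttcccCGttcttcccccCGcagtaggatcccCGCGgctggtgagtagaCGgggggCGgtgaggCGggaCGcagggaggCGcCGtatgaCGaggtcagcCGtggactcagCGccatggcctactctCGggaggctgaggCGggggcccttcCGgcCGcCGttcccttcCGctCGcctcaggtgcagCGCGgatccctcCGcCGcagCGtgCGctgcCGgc
Ssbp1 (chr6:40471218-40471467, + strand): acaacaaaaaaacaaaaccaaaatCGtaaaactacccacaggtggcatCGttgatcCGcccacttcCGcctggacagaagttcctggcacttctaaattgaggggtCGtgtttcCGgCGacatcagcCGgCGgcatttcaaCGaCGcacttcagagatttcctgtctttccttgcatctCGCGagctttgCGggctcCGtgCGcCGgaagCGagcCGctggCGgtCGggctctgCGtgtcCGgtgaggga
Elac2 (chr11:64978785-64979034, + strand): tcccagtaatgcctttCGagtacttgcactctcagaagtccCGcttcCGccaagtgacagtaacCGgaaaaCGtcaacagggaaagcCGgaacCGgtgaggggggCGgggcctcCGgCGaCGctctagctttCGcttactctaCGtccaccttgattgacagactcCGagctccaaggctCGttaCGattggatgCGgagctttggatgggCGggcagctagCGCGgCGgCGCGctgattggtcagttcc
Neurod1 (chr2:79456637-79456886, - strand): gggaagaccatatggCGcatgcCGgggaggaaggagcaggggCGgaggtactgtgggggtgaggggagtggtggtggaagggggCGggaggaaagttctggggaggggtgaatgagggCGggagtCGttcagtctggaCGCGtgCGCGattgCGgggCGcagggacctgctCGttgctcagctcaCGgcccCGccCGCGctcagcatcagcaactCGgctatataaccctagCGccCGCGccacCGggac
These stretches held 20 to 28 CpG each. The ETS motif CCGGAAG, on either strand, stood in those of Zfp518a and Ssbp1, the NRF1 core GCATGCGC in that of Neurod1, and the E-box CACGTG in none of them.

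The bin at the Gatd3a start stood at 2.29 and 3.15 in serum, 3.51 and 2.24 at 24 h and 5.85 and 5.48 in LT2i, with inputs of 4.80, 4.75 and 4.68. Only the LT2i libraries were above input there. The Zfp518a bin stood at 2.88 and 2.67 in serum, 3.71 and 3.65 at 24 h and 5.75 and 5.38 in LT2i, so the 24 h libraries lay between the others. The Ssbp1 bin went from 3.75 and 2.93 in serum to 5.61 and 5.33 in LT2i, but its 24 h libraries, 3.88 and 0.65, did not hold together, the lower resting on 1 read. The Elac2 bin held 3.29 and 3.52 in serum, 4.29 and 4.24 at 24 h and 5.17 and 5.70 in LT2i. The Neurod1 bin held 3.61 and 3.52, then 4.61 and 4.11, then 5.27 and 4.74, close to its inputs of 4.97, 4.52 and 4.84 by LT2i. All 5 bins were 1.32 to 2.55 below input in serum.

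Over all gaining bins the median value was 4.38 and 4.43 in the serum libraries, 4.88 and 4.90 at 24 h and 5.57 and 5.62 in LT2i, against 4.54 and 4.52, 4.51 and 4.46, and 4.36 and 4.38 over all autosomal bins. Relative to their input, gaining bins stood at a median of 0.04 in serum, 0.49 at 24 h and 1.19 in LT2i. The other bins with a mean LT2i value of 5 or more stood at 0.57 in serum and 0.85 in LT2i. The rule selects low serum and high LT2i readings, so these levels only describe the bins. Gaining bins took 1.81% and 1.89% of reads in serum and 4.18% and 4.35% in LT2i. The plot of values by library shows the gaining bins narrowly spread in every condition, while all bins spread widest in LT2i.

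**Figure D1:**
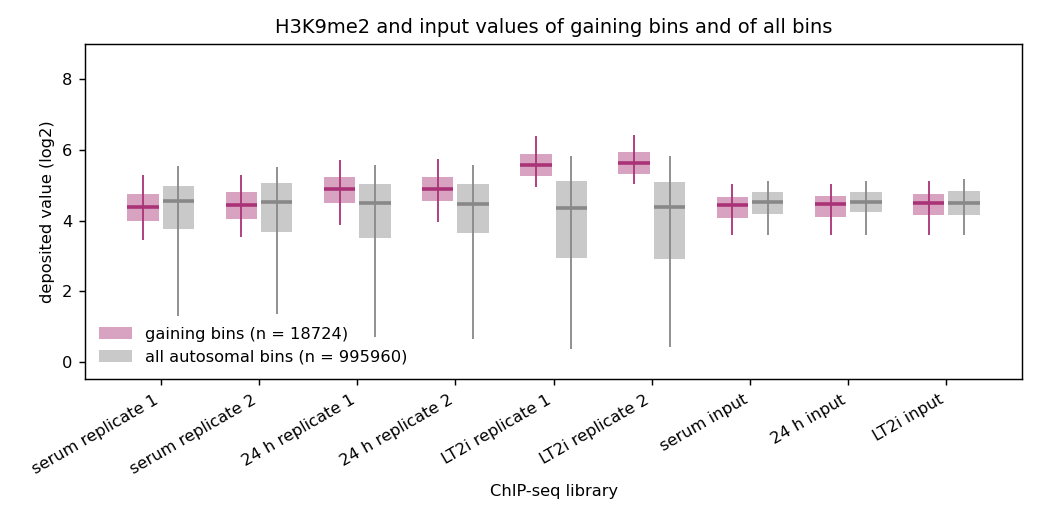
Deposited log2 values of the 18724 gaining bins and of all 995960 autosomal bins in each of the 9 ChIP-seq libraries. Boxes span the quartiles, lines the 5th to 95th percentile and bars mark the median, which is 4.38 and 4.43 in serum and 5.57 and 5.62 in LT2i for gaining bins, while inputs lie between 4.44 and 4.50.

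The difference between LT2i and serum, which the rule used and which therefore has no test, had a median of 1.16, with 1.61 at the 95th percentile and 3.95 at most. Over all autosomal bins its median was -0.15. Gaining bins cluster at the limit: 6484 had a difference of 1.0 to 1.1, and another 9514 bins with a mean LT2i value of 5 or more had 0.9 to 1.0. A difference of 1.5 or more was seen in 1700 gaining bins and of 2 or more in 120. Near the level limit, 1402 gaining bins had a mean LT2i value of 5.0 to 5.1 and 1308 bins with a sufficient difference had 4.9 to 5.0. The LT2i libraries were both above both serum libraries in 18695 gaining bins, 99.8%, as the rule nearly forces, against 23.8% of all bins.

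To see how much of the difference returned in libraries that had not chosen the bins, bins were chosen with replicate 1 alone and read in replicate 2. The 32527 bins so chosen had a median LT2i minus serum of 0.63 in replicate 2, against -0.14 for all bins and 0.29 for all bins with a replicate 1 LT2i value of 5 or more. The difference was above 0 in 89.3% of them and 1 or more in 24.0%, against 44.1% and 5.76% of all bins and 71.2% and 8.58% of all bins with a replicate 1 LT2i value of 5 or more. Chosen with replicate 2, 31774 bins had a median of 0.65 in replicate 1, with 90.2% above 0 and 25.3% at 1 or more, against 75.1% and 9.43% of all bins with a replicate 2 LT2i value of 5 or more. In these sets the direction thus returned in most bins, as it did less often over all bins with a choosing LT2i value of 5 or more. About 1 bin in 4 of these sets reached the limit of 1 again. The sets are not the gaining bins themselves.

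After 24 h of 2i the gaining bins stood a median of 0.46 above serum, with quartiles of 0.25 and 0.68, against -0.02 over all bins. The 24 h libraries were both above both serum libraries in 10424 gaining bins, 55.7%, against 18.1% of all bins, and both below in 212, 1.13%, against 19.9%. These values share the serum libraries with the rule, which favours bins that read low in serum. In bins chosen with the other replicate, the 24 h difference was 0.14 and 0.19, above 0 in 61.4% and 64.8% of bins, against medians of -0.02 and -0.00 and shares of 49.4% and 48.1% over all bins. Over all bins with an LT2i value of 5 or more in the choosing replicate, the medians were 0.05 and 0.08 and the shares 55.0% and 56.3%. LT2i was above 24 h without overlap in 16589 gaining bins, 88.6%, against 20.4% of all bins, which the choice by high LT2i values favours. In bins chosen with the other replicate, LT2i minus 24 h had a median of 0.51 and 0.46, against 0.24 and 0.26 over all bins with an LT2i value of 5 or more in the choosing replicate. With 2 libraries against 2, an exact test could not go below p = 0.333 for any bin. The study calls replicates of its expression time course biological, but no label says that the libraries came from separate cultures, so the spread between them may be partly technical.

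The inputs were not used by the rule. Their medians over gaining bins were 4.44 in serum, 4.46 at 24 h and 4.50 in LT2i, and the LT2i input minus the serum input had a median of 0.05, against -0.01 over all bins. Pooled over gaining bins, reads of the LT2i input against the serum input were 0.051 higher on the log2 scale per autosomal read, with an exact 95% interval of 0.044 to 0.058, which covers counting error only. With 1 input library per condition, the spread between input samples is not known. The bound difference had a median of 1.16 in the gaining bins, in the libraries that chose them. It was 0.63 and 0.65 in other sets, the 32527 and 31774 bins chosen with 1 replicate and read in the other. No serum or LT2i bound library was left that had not chosen the gaining bins themselves. Of the gaining bins, 645 had an LT2i input higher by 1 or more and 436 one lower by 1 or more, 3.44% and 2.33%, against 2.57% and 2.79% of all bins. Put through the same limits, the LT2i and serum inputs gave 9505 bins, 0.954%, against 3.27% and 3.19% for a pair of bound libraries of replicate 1 or 2. Both the inputs and these pairs are 1 library against 1. Over all bins, the upper quartile was 4.84 in the LT2i input and 5.11 and 5.10 in the bound LT2i libraries. Fewer input bins could thus reach the limit of 5, whatever their difference. By the difference alone, 2.57% of all bins were higher by 1 or more in the inputs, against 5.96% and 5.76% in the pairs. Shares near those of the pairs were also seen between bound replicates of the same condition. Replicate 2 was higher than replicate 1 by 1 or more in 5.17% of all bins in serum, 6.24% at 24 h and 6.84% in LT2i. Of the gaining bins, 217 also passed the limits in the inputs, 1.16%.

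Gaining bins were mostly isolated. Of the 18724, 14011 had no adjacent gaining bin and 3654 stood in pairs, and the longest run held 8. The bins beside them nevertheless shared part of the difference. At 2 kb on either side, bins that were not gaining had a mean LT2i minus serum of 0.51 and 0.50, falling to 0.23 and 0.22 at 10 kb and to 0.12 and 0.13 at 40 kb. At 24 h the same flanks stood 0.11 and 0.12 above serum at 2 kb and 0.03 and 0.02 at 40 kb, and the inputs were level across the window.

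**Figure D2:**
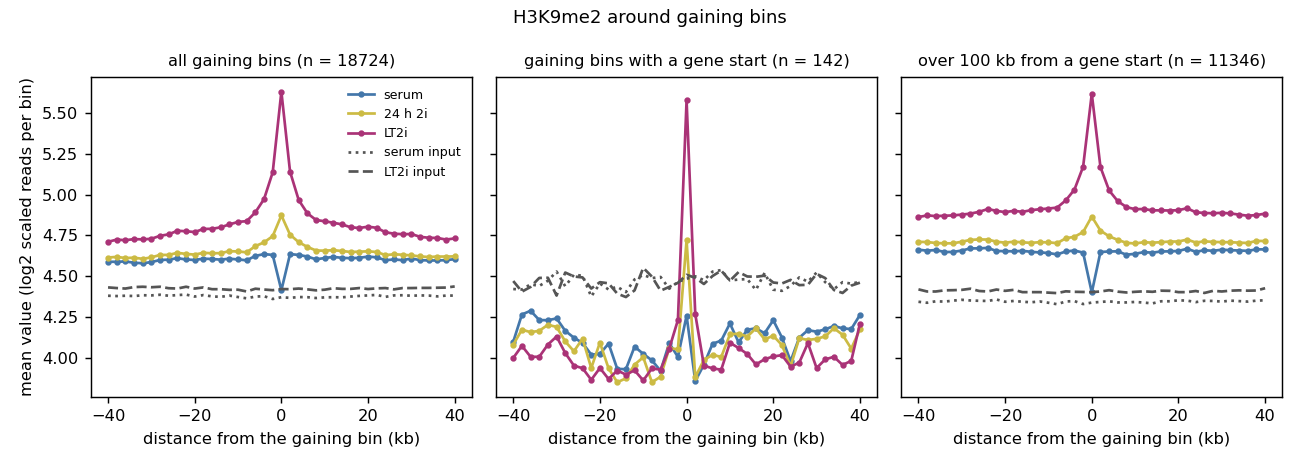
Mean bound and input values (log2) from 40 kb before to 40 kb after gaining bins, for all of them, those that hold a gene start and those over 100 kb from a gene start. Flanking bins that are themselves gaining are left out. The dip of serum at 0 in the left and right panels follows from the rule, and LT2i stays above serum out to 40 kb in the left and right panels but not in the middle one.

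The surroundings differed with position. Around the 11346 gaining bins over 100 kb from any gene start, LT2i was still 0.20 to 0.22 above serum 40 kb away. Around the 142 that hold a gene start, LT2i minus serum was 0.23 and 0.41 at 2 kb, -0.16 and -0.12 at 10 kb and -0.10 and -0.05 at 40 kb. A higher LT2i mean was thus seen there in the bin and its neighbours at 2 kb and not at 10 kb or 40 kb. The difference over all bins at such positions is not given here. Whether these flanks differ from other bins as far from genes was thus not tested.

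The longest run, 8 bins on chromosome 4 (chr4:140274001-140290000, 27018 bp from the immunoglobulin superfamily gene Igsf21), averaged 6.11 and 5.96 in serum, 6.25 and 6.20 at 24 h and 7.56 and 7.39 in LT2i. It was enriched in every condition, its inputs being 4.56, 4.82 and 4.59. A run of 7 bins on chromosome 1 (chr1:76574001-76588000), 64358 bp from Mir6343, stood at 4.40 and 4.50 in serum, close to input, and at 5.84 and 5.86 in LT2i. On chromosome 8, a run of 7 bins 28658 bp from Adamts18, which encodes a secreted protease, went from 5.06 and 4.90 to 6.32 and 6.26. The run of 7 on chromosome 6 (chr6:107538001-107552000) lies inside Lrrn1, a gene for a neuronal leucine-rich repeat protein, with 5.16 and 5.31 in serum, 5.47 and 5.53 at 24 h and 6.42 and 6.51 in LT2i. At 24 h these 4 runs were 0.19 to 0.59 above serum.

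The 10 bins with the largest difference hold a group that stands apart. Bins 1, 2, 3 and 6 are adjacent (chr17:39842001-39850000). Bins 1 and 6 overlap Rn18s-rs5, a pseudogene model of ribosomal RNA, of which the genome has many copies, and bins 2 and 3 lie 354 bp and 2354 bp from it. Their inputs were 8.85 to 10.82, far above the median bin. The bin at 39844001 held 6.63 and 5.48 in serum (81 and 35 reads), 7.31 and 7.25 at 24 h and 10.35 and 9.63 in LT2i (1017 and 533 reads). Bound DNA was 4.27 to 4.77 below input in serum, 3.50 to 3.81 below at 24 h and 0.26 to 0.74 below in LT2i, so these bins were depleted in all conditions, least in LT2i. Reads here may come from other copies.

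Bins 4, 5 and 7 start from almost no serum reads. The bin chr3:5860001-5862000 held 1 and 4 serum reads and 34 and 20 LT2i reads, chr15:14602001-14604000 held 0 and 4 and then 23 and 24, and chr9:112422001-112424000 held 1 and 8 and then 33 and 25. In each, serum replicate 1 lay over 2 below replicate 2 on the log2 scale, so the size of the difference rests on that library. Bin 8 (chr3:8244001-8246000) had 7 and 10 reads in serum, 11 and 14 at 24 h and 83 and 81 in LT2i, with replicates close in each condition. Bins 9 and 10 are adjacent on chromosome 15 (chr15:75084001-75088000), 8981 bp from the pseudogene Gm5960, with inputs of 6.04 to 6.56. The first held 4.99 and 4.67 in serum, 4.03 and 4.46 at 24 h and 8.06 and 8.31 in LT2i, and the second 4.46 and 4.74, 5.29 and 5.24, and 7.84 and 7.91. Both were below input in serum and at 24 h and 1.93 and 1.51 above it in LT2i. An input of 6 or more was seen in 14 gaining bins, 0.0748%, against 0.0239% of all bins (238), and 6 of these are among the 10 with the largest difference.

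**Figure D3:**
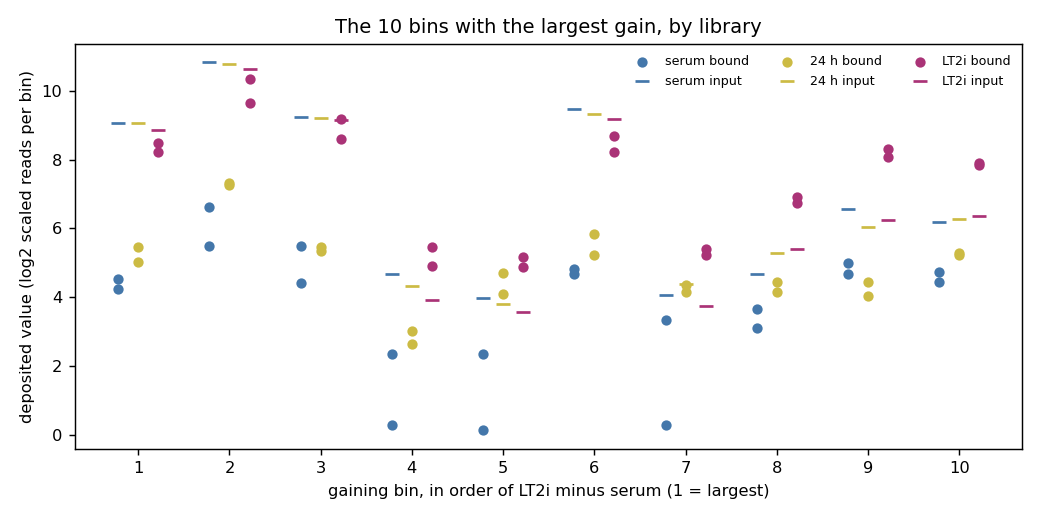
Deposited log2 values of the 10 gaining bins with the largest LT2i minus serum, in order of that difference, which chose them. Points are the 2 bound libraries per condition and dashes the input. Bins 1, 2, 3 and 6 lie at or beside Rn18s-rs5, with inputs of 8.85 to 10.82, and bins 4, 5 and 7 have a serum library at 0 or 1 read.

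Gaining bins lay away from genes. A gene of the expression table overlapped 3865 of them, 20.6%, against 46.0% of all bins, 33.2% of the other bins with a mean LT2i value of 5 or more and 62.3% of losing bins. With RefSeq models, which add non-coding genes, the shares were 30.4%, 55.3%, 43.9% and 71.3%. With a minimum mean LT2i value of 6, genes of the expression table overlapped 31.1% of gaining bins. The share of other bins at that limit was not taken. The median distance to the nearest gene start was 151 kb, against 54.5 kb over all bins, 117 kb over the other high bins and 43 kb over losing bins. Gaining bins over 500 kb from any start made up 17.2%, against 7.65% of all bins, 10.3% of the other high bins and 0.941% of losing bins. Bins of a domain share their position, so these shares have no test. The 24 h difference was alike across positions, with medians of 0.51 at gene starts, 0.42 inside genes, 0.46 outside genes within 100 kb of a start and 0.47 beyond.

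**Figure D4:**
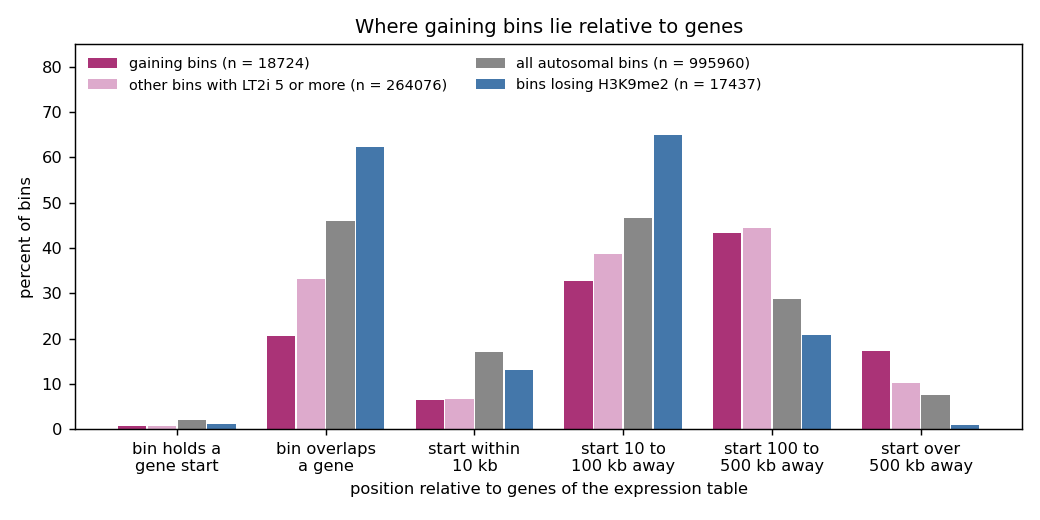
Percent of bins by position relative to genes of the expression table, for the 18724 gaining bins, the other bins with a mean LT2i value of 5 or more, all autosomal bins and losing bins. Gaining bins overlap a gene in 20.6% and lie over 500 kb from a start in 17.2%, against 62.3% and 0.941% of losing bins.

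By chromosome, gaining bins ranged from 1.11% of the bins of chromosome 11 to 2.53% of chromosome 3, with chromosomes 14 and 1 next at 2.50% and 2.38% and chromosomes 19 and 7 lowest after 11 at 1.23% and 1.37%. The share of input reads on chromosome 14 was 1.057 times higher in LT2i than in serum, and on chromosome 11 it was 0.966 times that in serum, the highest and lowest of the 19. At 24 h the ratio was 1.000 and 0.999. The part of these input differences in the chromosome shares was not tested. Without chromosome 14, 17567 gaining bins were left, with medians of 1.16 for LT2i minus serum, 0.46 at 24 h and 0.05 for the inputs. Medians over mostly the same bins could hardly move, so they say nothing of the chromosome shares. Within chromosomes the bins were unevenly spread. Among 2366 windows of 1 Mb with 100 bins or more, 294 held none, the median was 6, and 461 windows (19.5%) held the first 50% of gaining bins. The window with the most, chr5:6000001-7000000, had 63 gaining bins among 334 and no losing bin, and its median bin stood at 4.32 in serum, 4.56 at 24 h and 5.01 in LT2i. The next by number was chr14:80000001-81000000 with 55 of 427 and a median difference of 0.48, so in these windows most bins were higher in LT2i, also those short of the limits.

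Clusters of chemosensory receptor genes held more of these bins than most families. Of the bins within 10 kb of the 1103 olfactory receptor (Olfr) genes, 307 of 7058 were gaining, 4.35%, and of those near 325 vomeronasal receptor genes (Vmn1r and Vmn2r) 94 of 1903, 4.94%, against 1.88% of all bins. Near the zinc finger genes (Zfp and Zscan) it was 45 of 7263, 0.620%. Bins near the detoxifying Cyp and Ugt genes held 2.02% and 2.92%, on 27 and 7 bins, Serpin genes 2.00%, defensins 1.27%, keratins 1.01%, and unnamed Gm and Rik models 1.00%. No bin near the 68 histone (Hist), 23 clustered protocadherin and 15 antigen receptor genes of the table was gaining, among 241, 179 and 32 bins. The table lists few antigen receptor segments, and 2 gaining bins with an input of 6 or more lie in the RefSeq Igh locus (chr12:115612001-115616000).

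RefSeq lists 197 promoters of 189 genes whose start lies in a gaining bin. Their 300-base windows held a median of 4 CpG and 47.3% GC, against 8 and 54% for all 28665 promoters that start in an autosomal bin. At least 15 CpG were found in 50, 25.4%, against 37.6% of all. Such CpG-rich starts usually carry little H3K9me2: over all 8535 bins that hold one, the median was 0.82 in serum, 1.10 at 24 h and 0.47 in LT2i, with inputs of 4.60 and 4.50. The 45 that were gaining bins stood at 4.07 in serum, 4.61 at 24 h and 5.51 in LT2i. Their serum level lay well above that of other CpG-rich starts, which the LT2i limit of the rule favours, so it only describes them. They were 0.527% of CpG-rich start bins, while gaining bins were 0.871% of start bins with under 15 CpG. The ETS motif CCGGAAG stood on either strand in 15.2% of promoters in gaining bins and 9.37% of all, the E-box CACGTG in 6.60% and 7.45%, and the NRF1 core GCATGCGC in 2.54% and 2.91%. Of 886 miRNA hairpins in autosomal bins, 5 lay in gaining bins (Mir137, Mir6237, Mir6341, Mir6354 and Mir8092). This is a smaller share than the 1.88% of all autosomal bins that were gaining. The bin of Mir137, a neuronal miRNA, went from 4.20 and 3.67 in serum to 5.49 and 5.22 in LT2i with 3.88 and 3.46 at 24 h.

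A gaining bin was overlapped by 1649 genes of the expression data, with 960 of them on a single bin and 64 on at least 10. A long gene meets a bin more easily, and the median span was 109 kb against 13.7 kb over autosomal genes, while the 147 genes that start in a gaining bin had 11.4 kb. Genes that overlap were mostly silent. Their median serum level, in log2 reads per gene length and depth, was -3.98 against -1.03 over autosomal genes, and 20.4% reached 0 against 44.6%, with 34.7% for genes that start in a gaining bin. The 10 genes with the most gaining bins are Ptprt (28), Macrod2 (27), Opcml (25), Cntn5 (23), Ctnna3 (21), 1700007B14Rik (20) and, with 19 each, Lrp1b, Pcdh15, Fhit and Trpm3. Several encode neuronal adhesion molecules, such as Cntn5 and Opcml, or cell junction proteins, such as Ctnna3. They span 536 to 2060 kb, and gaining bins were 2.29% to 10.1% of their bins. Over all bins of Ptprt, the mean was 4.94 in serum, 4.99 at 24 h and 5.27 in LT2i. None of the 10 passed the expression filter. The expression of Fhit, a nucleotide hydrolase gene, was -3.81, -3.54 and -5.09 in serum and 0.15, 0.30 and -1.38 at 72 h.

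Expression was not used by the rule and was tested with limma over 12306 genes at an adjusted p under 0.05. In bulk RNA, a lower level can mean fewer cells with the transcript or less of it per cell, which cannot be told apart. Of the 1649 genes, 383 passed the filter. At 6 h 76 of them were called, 19.8%, against 15.6% of all genes tested. This count was 49 or 50 without serum replicate 1 or 2 or 6 h replicate 1 or 2, and 142 in a fit of the 6 libraries compared. The share over all genes was not taken in these fits, so whether the excess at 6 h holds in them is not known. At 24 h 266 were called, 69.5%, against 63.3%, and at 72 h 237, 61.9%, against 52.2%. With no filter on low expression the shares at 72 h were 30.7% and 30.2%, so the excess was not seen in that fit. Its median change was -0.10 both for overlapping genes and over all genes. That fit adds silent genes unequally, as 20.4% of overlapping genes reached 0 in serum against 44.6% of autosomal genes. With the filter, the shares at 72 h were 62.1% against 54.2% after quantile normalisation. In a fit of the 6 libraries compared they were 62.4% against 53.7%. Of the 383 genes past the filter, 96 were higher and 141 lower at 72 h, 25.1% and 36.8%, against 25.7% and 26.5% of all genes tested. Their median change at 72 h was -0.11, against -0.01 over all genes, but it was 0.05 with a minimum LT2i value of 6 and -0.28 with a minimum difference of 1.5. Trophoblast markers summed to 2.17 to 2.47 in serum, 0.42 to 0.52 at 24 h and 1.84 to 2.10 at 72 h, and fibroblast markers to 2.93 to 3.28, 2.24 to 2.95 and 2.17 to 2.30, and their part in these changes was not tested. Of 147 genes that start in a gaining bin, 54 were tested and 27 called at 72 h, 50.0%, with 10 higher and 17 lower. At 24 h 21 were higher and 14 lower, 38.9% and 25.9%, against 34.2% and 29.1% of all genes tested, and at 6 h 8 and 1, 14.8% and 1.85%, against 9.13% and 6.48%. RNA at 72 h and the LT2i chromatin are different times, so the values are set side by side only.

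The largest fall was that of Spink3 (Spink1 in RefSeq), a trypsin inhibitor gene on chromosome 18. Its expression was 4.01, 4.32 and 3.70 in serum, 3.32, 3.18 and 3.16 at 6 h, 1.86, 1.01 and -0.05 at 24 h and -3.43, -3.12 and -3.17 at 72 h. The groups did not overlap, and the fall by 7.25 (SE 0.36) at 72 h had an adjusted p of 4.63e-08. The 72 h values differ between samples as in Pcdh15 (-8.88, -8.57 and -8.62), which was flat at all times. They thus appear to be the floor of a gene without reads, which sets the size of the fall and the closeness of the samples. Of its 5 bins 4 were gaining, the highest share among genes with 5 bins or more. The bin at its start held 3.75 and 3.67 in serum, 4.61 and 4.35 at 24 h and 5.17 and 5.16 in LT2i, with inputs of 4.86, 4.25 and 4.76. The bin that was not gaining, in the middle of the gene, held 4.82 and 4.99 in serum and 5.68 and 6.00 in LT2i, just short of the limit.

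Enpp2, which encodes autotaxin, a secreted enzyme that makes lysophosphatidic acid, fell by 6.32 (SE 0.37, adjusted p 1.24e-07), with 1 gaining bin among 41. Enox1, an oxidoreductase gene with 12 gaining bins among 267, fell from 3.79, 3.75 and 3.54 in serum to 1.47, 1.46 and 1.20 at 6 h and -2.16, -2.43 and -1.82 at 72 h, a change of -5.83 (SE 0.18, adjusted p 1.41e-09). It was called lower already at 6 h, by 2.31 (adjusted p 6.1e-06). Over the bins of Enox1 as a whole, H3K9me2 averaged 4.38 in serum, 4.60 at 24 h and 4.69 in LT2i. Jakmip2, for a neuronal microtubule-associated protein, and Lrp2, for the endocytic receptor megalin, fell by 5.82 (SE 0.42) and 4.37 (SE 0.27). Lrp2 had 4 gaining bins of 82 and Jakmip2 1 of 78.

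Among genes that rose, Tmem117 changed by 5.69 (SE 0.48, adjusted p 2.35e-06), from -5.71, -5.59 and -3.67 in serum to 0.75, 0.99 and 0.35 at 72 h. It had 5 gaining bins among 218, while the mean over all its bins was 4.74 in serum and 4.47 in LT2i. Gm4222, a short gene model that lies whole in 1 gaining bin, rose from -3.01, -2.74 and -3.29 to 2.31, 2.99 and 2.48 (5.61, SE 0.46, adjusted p 1.83e-06). Its serum values appear to be the floor of a gene without reads, so the size of its rise depends on that floor. Tmem163, for a zinc transporter, Ccdc68, for a centrosomal protein, and Myom2, for a muscle structural protein, rose by 4.16, 3.94 and 3.87, with 1 gaining bin each. The mean H3K9me2 over all bins of these 3 genes was lower in LT2i than in serum, 3.85 against 4.47, 4.51 against 4.89 and 3.96 against 4.46. In Tmem117 and these 3 genes a gaining bin thus stood in a gene whose mean was lower in LT2i.

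Of genes with the printed promoters, Neurod1 fell by 4.31 (SE 0.31, adjusted p 6.54e-07), Elac2 by 1.23 (SE 0.14, adjusted p 3.02e-05) and Zfp518a by 0.95 (SE 0.14, adjusted p 0.00016) at 72 h. Gatd3a, listed under its older symbol D10Jhu81e, differed from serum by 0.24 (SE 0.20, adjusted p 0.323) and Ssbp1 by -0.05 (SE 0.20, adjusted p 0.837) at 72 h, while at 24 h both were called higher, by 0.82 (adjusted p 0.00392) and 0.56 (adjusted p 0.0273). Lamp1, a lysosomal membrane protein gene picked after its values were seen, whose start bin went from 3.75 in serum to 5.53 in LT2i (means of 2), rose by 1.07 (SE 0.15, adjusted p 0.000143). So genes with a gaining start bin were found higher, lower and not called at 72 h. Near the longest runs, Igsf21 was called higher by 0.60 (adjusted p 0.0282) at 24 h and fell by 1.01 (SE 0.21, adjusted p 0.00215) at 72 h, and Lrrn1 and Adamts18 were below the filter.

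**Figure D5:**
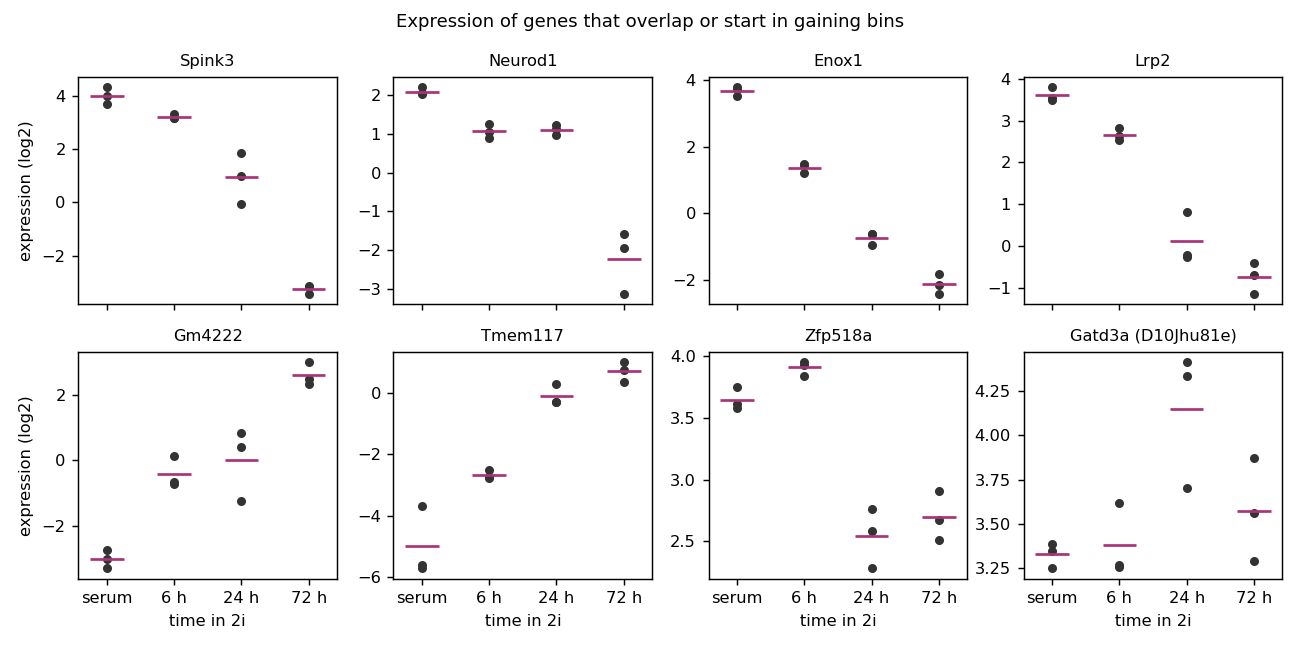
Expression (log2, corrected for gene length and depth) of 8 genes that overlap or start in gaining bins, in serum and after 6 h, 24 h and 72 h of 2i. Points are the 3 samples per group and lines their mean, and each panel has its own vertical scale. Spink3 ends at -3.43 to -3.12 and Gm4222 at 2.31 to 2.99, while Gatd3a (D10Jhu81e) overlaps serum at 72 h. The 72 h values of Spink3 and the serum values of Gm4222 appear to be the floor of genes without reads.

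Genes that write, erase or read H3K9 methylation, with some of their partners, are given by list. The shares of all genes tested that were called higher and lower at each time, given above, are their background, with 29.1% lower at 24 h and 26.5% at 72 h. Of 9 writers and cofactors, all tested, 5 were lower at 72 h. The called rises in the lists were Kdm3a by 0.40 (adjusted p 0.0393) and Uhrf1 by 0.36 (adjusted p 0.0416) at 6 h and Suv39h2 by 0.33 (adjusted p 0.0489) at 24 h. Ehmt1 fell by 1.41 (SE 0.18, adjusted p 5.8e-05) and Ehmt2 by 1.11 (SE 0.12, adjusted p 1.81e-05). Atf7ip, the cofactor of SETDB1, fell by 1.18 (SE 0.28), Zfp644 by 0.84 (SE 0.13) and Suv39h1 by 0.36 (SE 0.10), while Wiz, Setdb1, Setdb2 and Suv39h2 did not pass at 72 h. Of 8 erasers tested out of 9, 7 were lower at 24 h and 2 at 72 h, the latter near the share of all genes. Jmjd1c fell by 2.39 (SE 0.24) and Kdm4c fell by 1.11 (SE 0.14). Kdm3a fell by 0.97 (SE 0.12) at 24 h and stood at -0.02 (SE 0.12) at 72 h. Of 7 genes listed as readers, Cbx1, Cbx5 and Cdyl fell at 72 h, by 0.83, 1.26 and 0.28. Trim28, which is in that list but does not itself read the mark, fell by 1.18. Cbx3, Uhrf1 and Mphosph8 did not pass at that time. Among the autosomal genes of these lists, only Zfp644, Jmjd1c and Cdyl overlapped a gaining bin, with 3, 1 and 1. The writer gene Suv39h1 and the eraser gene Phf8 lie on chromosome X, outside the rule.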

How the data were processed

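H3K9me2 ChIP-seq (antibody ab1220) and RNA-seq of E14 ESCs were analysed. The authors deposited ChIP-seq values as log2 reads per 2-kb bin (GRCm38), scaled per library as inferred from the values, and RNA-seq values as log2 reads per gene corrected for length and depth. The submitters' notes name Trim Galore 0.3.5, TopHat2 2.0.11, Bismark 0.12.3 and Bowtie2, without roles. Undoing the scaling gave whole reads (within 0.1 read, up to 50 reads). The lowest input values in the table were 3.00 to 3.17, and no source used here says whether low-input bins were left out. Expression was fitted over all 12 samples with limma 3.58.1 (R 4.3.3), on genes at 0 or more in 3 libraries, with Benjamini-Hochberg adjustment, after the script was tested on simulated data. Python 3.11.15, numpy 2.4.6, pandas 2.3.3, scipy 1.17.1 and matplotlib 3.10.9 did the rest. Bins, genes and lists were chosen with earlier results of these data known. Named were the 10 bins with the largest difference, the 5 longest runs (1 of them is not reported here), the 10 genes with most gaining bins, the 5 largest called rises and falls at 72 h and the H3K9 lists. The bisulfite tables use another build (NCBIM37) and were not used here. Alternatives varied the limits, scaling, gene models, filter, normalisation and libraries.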

Additional observations from a re-analysis of the deposited data

Results flagged for a closer look

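The bin chr15:75084001-75086000 went opposite ways at the 2 times: its 24 h minus serum was -0.59, with both 24 h libraries (4.03 and 4.46) below both serum libraries (4.99 and 4.67), while its LT2i minus serum was 3.36. The difference between the times was not tested.

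Chromosome X was outside the rule. Of its 30477 bins, 177 (0.581%) passed the same limits, against 6 (0.0197%) in the inputs. Their medians were 3.95 in serum, 4.32 at 24 h and 5.15 in LT2i. How levels on X compare with those on autosomes is not given here, so the fixed limit of 5 may not be equally strict there. The share on X can thus not be set against that on autosomes.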

How the results depend on the processing

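Of 139 alternative values, 81 stayed close to the reported one and 58 moved. Close means within 1.5-fold for counts, and within the spread between replicates or the counting interval for other values. The cause was not tested beyond what each setting changes. In the order bins, LT2i minus serum, 24 h minus serum, input difference, percent in genes, genes called at 72 h and their median change, only moved values are given. A minimum LT2i value of 4 gave a 24 h difference of 0.50, 441 genes and a median of -0.16. A minimum of 6 gave 3528 bins, a 24 h difference of 0.36, an input difference of 0.04, 31.1% in genes, 66 genes and a median of 0.05, which has the opposite sign. A minimum difference of 1.5 gave 1700 bins, 1.63, 0.78, 17.0%, 36 genes and -0.28. Centring columns on their median gave 37438 bins, an input difference of 0.08, 22.1%, 374 genes and -0.03. Taking bound minus input gave 43389 bins, 0.76, 0.24, an input difference of -0.57, 26.8%, 454 genes and -0.05. This input difference has the opposite sign, which the setting selects for. The gene counts come from the main fit, in which 52.2% of all genes tested were called at 72 h. How many genes of each list were tested is not given, so the counts are not shares.

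Bins chosen with 1 replicate and read in the other gave 0.63 and 0.65 for LT2i and 0.14 and 0.19 for 24 h. The percent in genes was 19.8 by bin centre, 26.8 with genes extended by 10 kb and 30.4 with RefSeq genes. RefSeq genes and the omission of chromosome 14 were chosen after seeing the data. With no expression filter, 136, 485 and 507 overlapping genes were called at 6 h, 24 h and 72 h, the last being 30.7% of them against 30.2% of all genes, and with an absolute log2 change of 1 or more 31, 143 and 123, and 12 genes starting in gaining bins. The 6 libraries compared alone gave 142 genes at 6 h, and quantile normalisation a median of -0.14 at 72 h. Apart from the 72 h count without a filter, no share over all genes was taken beside these counts. They therefore do not set the genes of gaining bins against other genes.

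Leaving out each library in turn gave 22907 to 28877 bins, an LT2i difference of 1.17 to 1.19, a 24 h difference of 0.39 to 0.59, 20.9% to 23.4% in genes, 205 to 328 overlapping genes called at 72 h with a median of -0.15 to -0.07, 49 to 58 called at 6 h, 233 to 283 at 24 h, and 22 to 27 genes starting in gaining bins. The 28877 bins came without LT2i replicate 1, and at 6 h, against 76, 50 genes were called without serum replicate 1 or 6 h replicate 1 and 49 without serum replicate 2 or 6 h replicate 2. The 72 h median was -0.09 without RNA-seq serum replicate 2. No share over all genes was taken beside the gene counts of these settings.

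Same-numbered RNA samples of serum and 2i correlated in their deviations at 0.281, 0.159 and 0.542 at 6 h, 0.27, 0.105 and 0.468 at 24 h and 0.051, 0.303 and 0.395 at 72 h, and the ChIP-seq pairs at 0.0271 and 0.00198. With 1 of 9 RNA pairs under 0.1, the numbers were not taken as pairing across the series, although all 3 pairs at 6 h and at 24 h were over it. A replicate block gave 92, 289 and 271 overlapping genes called at 6 h, 24 h and 72 h, 31 genes starting in gaining bins at 72 h, and a 24 h difference of 0.46. At 72 h this was 70.8% of overlapping genes against 60.9% of all, and at 6 h and 24 h no share of all genes was taken. Bins rest on about 17 serum reads each, so single-bin sizes are imprecise, and with 2 libraries per condition an exact test per bin could not pass the threshold. No moderated test per bin was run, since the rule used these values.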
